A study of Mus musculus with 26 samples.

Results

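This account describes 13 single retinal cells in which Notch1 had been targeted by Cre recombinase (N1-CKO cells), split by whether they carried bright transcript of Nrl. A cell was called Nrl positive when the signal of its Nrl probe set reached the 90th percentile of all non-control probe sets on its own array. By this rule 9 of the 13 N1-CKO cells were Nrl positive (cells 1, 2, 3, 4, 6, 7, 9, 10 and 11) and 4 were not (cells 5, 8, 12 and 13), out of 26 cells in the series. The share was 69.2% (exact 95% Clopper-Pearson interval 38.6 to 90.9, counting error only). The Nrl signal chose the cells, so its values are a description: the lowest positive cell was cell 9, at 758 against a threshold of 644 on its array, the 91.2th percentile. The median positive cell had an Nrl signal of 11019 and the highest, cell 10, one of 117038. Just outside lay cell 8, with 108 against a threshold of 396 (60.2th percentile), followed by cell 5 with 18.2, cell 12 with 14.7 and cell 13 with 0.696.

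The mice were homozygous for floxed Notch1 on a C57BL/6 background, controls included. Retinas were electroporated in the living pup on postnatal day 0, and cells were taken on postnatal day 3. N1-CKO cells received CAG:Cre with CALNL-GFP, a reporter that Cre switches on, and the 13 WT cells received CAG:GFP from the same broadly active promoter. GFP-bearing cells were picked singly, and the cDNA of each, primed on poly-A tails and amplified by PCR, went onto its own array. GFP in an N1-CKO cell reports Cre activity on the reporter, and the labels give no measure of Notch1 recombination in the cell that was profiled. No animal or litter is named, so the 9 and the 4 cells each stand as 1 sample: no test was made, and each SD below is the spread between cells.

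Nrl is a leucine zipper transcription factor that directs newborn photoreceptors to the rod fate and acts with the homeodomain factor Crx on rod genes. Otx2 lies upstream of Crx in photoreceptor and bipolar precursors, and Prdm1 favours the photoreceptor over the bipolar choice. In the newborn mouse retina, Notch1 signalling in progenitors holds back the exit into photoreceptors. Nr2e3, a rod factor downstream of Nrl, was not analysed here.

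The promoters of Nrl, Crx and Fabp7 are shown because Nrl defined the split and because Crx and Fabp7 had the largest mean differences that the Nrl-positive cells shared without exception and that recurred in the WT cells. Each window spans 300 bases around the start of the gene in RefSeq (build GRCm38.p6), most of them upstream, 5′ to 3′ on the strand of the gene. Capitals mark a CRX-type motif (TAATCC or its reverse complement GGATTA) or an NRL-type core (TGCTGA or TCAGCA), the 2 motifs searched on both strands, which do not overlap each other here.
Nrl: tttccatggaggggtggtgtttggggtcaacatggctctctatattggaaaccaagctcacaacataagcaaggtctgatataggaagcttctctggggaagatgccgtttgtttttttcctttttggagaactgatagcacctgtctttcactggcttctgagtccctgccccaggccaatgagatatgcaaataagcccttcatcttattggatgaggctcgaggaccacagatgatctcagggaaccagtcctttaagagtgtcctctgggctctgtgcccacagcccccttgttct
Crx: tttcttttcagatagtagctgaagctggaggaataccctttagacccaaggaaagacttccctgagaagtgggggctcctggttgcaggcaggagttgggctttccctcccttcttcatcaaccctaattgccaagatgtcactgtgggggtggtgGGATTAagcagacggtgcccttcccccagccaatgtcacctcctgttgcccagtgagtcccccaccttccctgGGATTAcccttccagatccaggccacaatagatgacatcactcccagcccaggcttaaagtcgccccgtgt
Fabp7: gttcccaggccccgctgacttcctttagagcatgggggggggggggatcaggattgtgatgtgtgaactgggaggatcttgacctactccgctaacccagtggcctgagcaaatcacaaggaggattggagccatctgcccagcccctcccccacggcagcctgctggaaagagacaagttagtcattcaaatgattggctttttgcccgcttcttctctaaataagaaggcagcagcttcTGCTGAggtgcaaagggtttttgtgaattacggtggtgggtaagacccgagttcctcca
The windows lie at chr14:55524203-55524502 (minus strand) for Nrl, chr7:15879906-15880205 (minus) for Crx and chr10:57784673-57784972 (plus) for Fabp7. The Crx window held 2 CRX-type motifs and no NRL-type core, the Fabp7 window held 1 NRL-type core, and the Nrl window held neither set of letters. Of 32851 mouse promoters of the same length, 7.06% held a CRX-type motif and 19.5% an NRL-type core. These are matches of letters, and no binding was measured.

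The sets of arrays differed in quality control values, which are given here once. The 3′ over 5′ signal ratio of the Gapdh control, which grows when cDNA is short, was 1.46 to 7.05 in the 9 Nrl-positive cells, with 2 of them over 3 (cells 4 and 6). In the others it was 245 in cell 5, 1.96 in cell 8, 30.3 in cell 12 and 3.43 in cell 13, so that 3 of the 4 exceeded 3. The same ratio of the Actb control did not follow that of Gapdh throughout. For Actb it was 3.08 in cell 5, 0.86 in cell 8, 2351 in cell 12 and 13.4 in cell 13. The Nrl-positive cells had Actb ratios of 1.43 to 18.3. The 18S ribosomal RNA control was high on the arrays of 4 Nrl-positive cells (3, 9, 10 and 11) and of cell 8, and low on those of the other 8. Log2 signals of pairs of cells correlated across probe sets with a median r of 0.46 within the Nrl-positive cells, 0.45 within the others and 0.45 between the sets. The part of these array differences in the results below was not tested beyond the values given beside them. In the plot of Nrl signal against the Gapdh ratio, cell 8 is the only N1-CKO cell without bright Nrl transcript to the left of the line at 3.

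**Figure D1:**
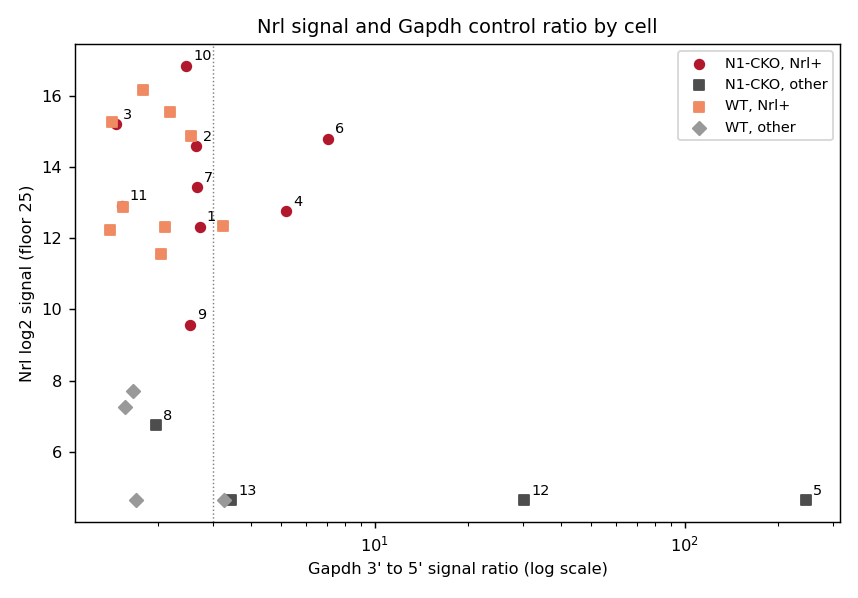
Log2 Nrl signal (signals below 25 raised to 25) against the 3′ to 5′ Gapdh control ratio (log axis) of all 26 cells, with N1-CKO cells numbered and a dotted line at a ratio of 3. N1-CKO cells 5, 12 and 13 lie at the floor of 4.64 with ratios of 245, 30.3 and 3.43, while 7 of the 9 Nrl-positive N1-CKO cells lie at ratios of at most 3.

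Across the transcriptome, 3841 of 18193 genes, with Nrl itself left out, were detected in at least 4 of the 13 N1-CKO cells. Detection means a signal at or above the 90th percentile of the cell's own array. Signals below 25 were raised to 25 (log2 4.64), and differences are mean log2 signal in Nrl-positive cells minus that in the other cells. Such a difference mixes the number of cells in which a transcript was bright with its level there. The median difference was 0.17, with the higher mean in Nrl-positive cells for 53% of the genes and the lower mean for 47%. By a size rule of 3 log2 units, 375 genes (9.76%) were higher and 212 (5.52%) were lower in Nrl-positive cells, and in 207 and 109 of them the difference exceeded the SD of either set. The counts rest on few cells: leaving out cell 8 gave 326 lower genes, and leaving out any other cell gave 200 to 297. The filter also shapes them, since a gene detected in no other cell, as 285 of those used were, could enter only through the Nrl-positive cells. List medians over detected members are raised in the same way, so the lists described at length are also given over all their measured members.

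Of the transcription factors of photoreceptors, Crx stood apart. Its log2 signal ran from 13.05 to 15.39 in the 9 Nrl-positive cells, with a median of 13.98. It was 9.53 in cell 5, 12.34 in cell 8 and at the floor of 4.64 in cells 12 and 13. Every Nrl-positive cell was thus brighter for Crx than every other cell, which held for 4 of the 3841 genes in this direction (0.104%). The means were 14.15 ± 0.78 (SD, n = 9 cells) and 7.79 ± 3.81 (n = 4), a difference of 6.36, and Crx was detected in 9 of 9 and 1 of 4 cells. A second Crx probe set gave 4.89, with detection in 5 and 0 cells. The separation depends on the line drawn for Nrl. With the Nrl call at the 95th percentile, cells 1 and 9 (94.6th and 91.2th percentile) join the other cells. Their Crx signals were 13.51 and 15.39, above the 13.05 of cell 11, so Crx then no longer separates the sets.

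Otx2, which acts before Crx, split the other cells among themselves. In Nrl-positive cells it ran from 12.27 to 16.90 (median 13.84), and all 9 were detected. Cells 5 and 8 had Otx2 signals of 14.05 and 15.89, inside that range, whereas cell 12 was at the floor and cell 13 was at 5.05. The mean difference of 4.07 (13.98 ± 1.49 against 9.91 ± 5.90) therefore describes no single cell of the others, and it was 2.32 without cell 12. Prdm1 followed the same order. Its signals were 14.62 in cell 5, 12.60 in cell 8, 4.73 in cell 12 and 5.31 in cell 13, against a median of 14.56 in the Nrl-positive cells, where cell 11 alone was at the floor and the remaining 8 lay between 11.24 and 16.34. The difference of 3.59 was 2.06 without cell 12.

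Neurod1, a basic helix-loop-helix factor that photoreceptor precursors share with other young neurons, did not follow Nrl. It was detected in all 13 cells, at 12.82 to 15.49 in Nrl-positive cells (median 14.02) and at 15.44, 16.03, 14.48 and 12.81 in cells 5, 8, 12 and 13. The means of 14.10 ± 0.93 and 14.69 ± 1.41 differ by -0.59, less than the spread in either set. Rorb, a nuclear receptor needed for Nrl expression, had means of 11.14 ± 0.58 and 11.41 ± 0.86 and detection in 7 of 9 and 4 of 4 cells, but a second probe set, detected in 4 of 9 and 1 of 4, gave a difference of 2.91. Mef2d, which acts with Crx, and Casz1, which biases progenitors towards rods, had higher means in Nrl-positive cells by 3.37 and 3.81. Mef2d was detected in 7 of 9 and 1 of 4 cells (2.12 without cell 5), and Casz1 in 4 of 9 and 0 of 4. Samd11, a transcriptional regulator of photoreceptors, differed by 0.52, with detection in 3 of 9 and 2 of 4 cells (-0.24 without cell 10, 1.40 without cell 8).

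Of the 12 photoreceptor transcription factors measured, 10 had the higher mean in Nrl-positive cells (83.3%, beside 62.3% of all 18192 genes measured apart from Nrl). The mean was higher by at least 3 for 5 of them, as for 2.87% of all genes measured. Their median difference was 0.80, beside 0.28 over all genes measured. The 8 detected in at least 2 cells had a median of 3.48, a value that the filter on detection raises, since Casz1 entered through Nrl-positive cells alone. This last median also depends on which other cells stand on the far side. With cell 8 as the only other cell, it was -0.60 when cells with Gapdh ratios above 3 were left out and -0.87 over the arrays with high 18S. Among low 18S arrays, where cells 5, 12 and 13 are the others, it was 5.02. Used members with a promoter window were 8 transcription factors, 5 phototransduction genes and 7 structure genes. A CRX-type motif was found in 4, 3 and 3 of them, and an NRL-type core in 5, 2 and 2. A gene counted if any of its windows held the letters. The shares of 7.06% and 19.5% over all promoters are counted per window, so they are not directly comparable.

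**Figure D2:**
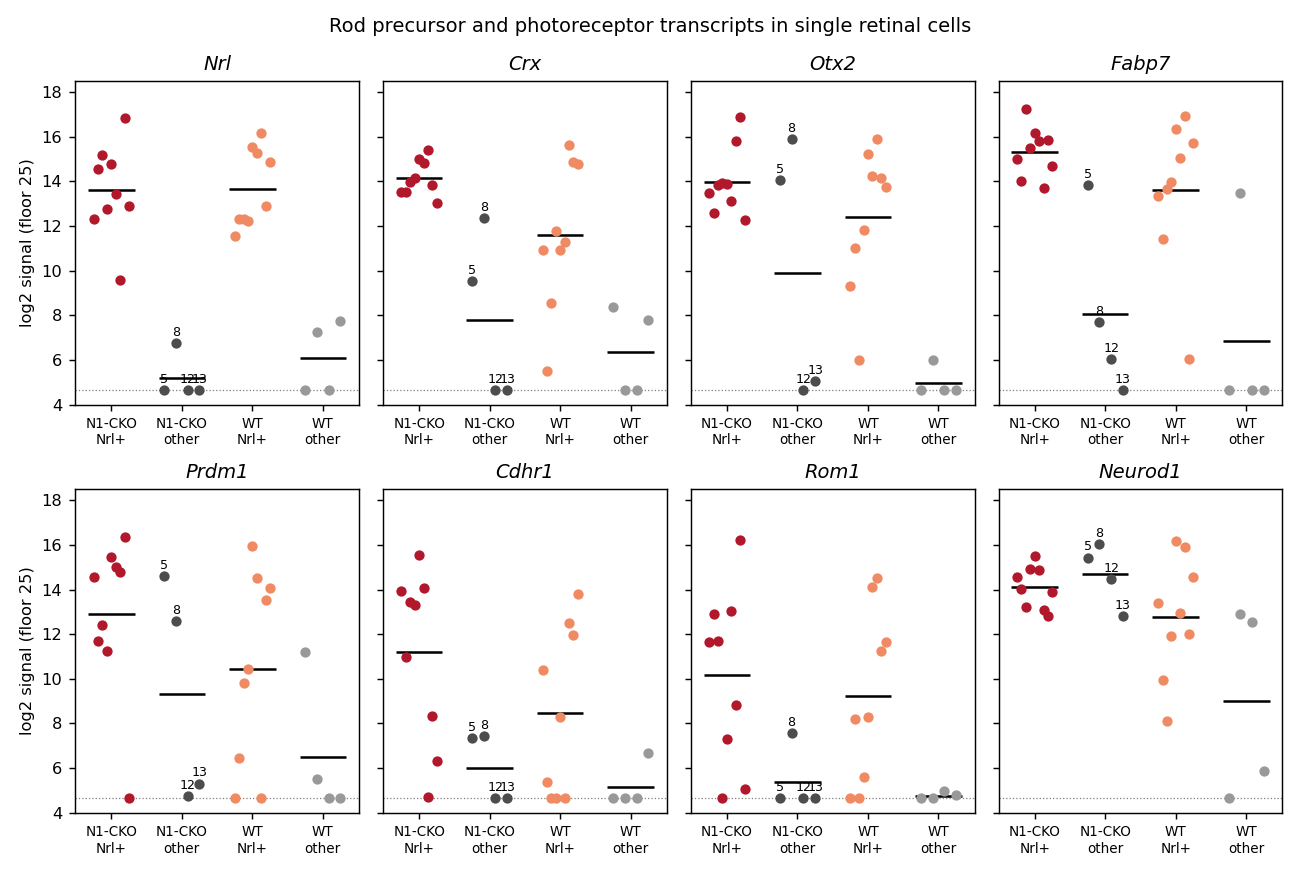
Log2 signal of Nrl and 7 photoreceptor or precursor genes in each cell (points), with N1-CKO cells without bright Nrl numbered, means as bars and the floor of 4.64 dotted. Crx separates the N1-CKO sets, at 13.05 and above against 12.34 and below, while for Otx2 and Prdm1 cells 5 and 8 lie among the Nrl-positive cells, and Neurod1 is high in all 13.

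Fabp7, which encodes a brain fatty acid binding protein found in progenitors and young glia, had the largest difference after Nrl. Nrl-positive cells lay between 13.69 and 17.25, with a median of 15.50. The other cells had 13.85 in cell 5, 7.68 in cell 8, 6.03 in cell 12 and the floor in cell 13. Only cell 5 thus reached the lower end of the Nrl-positive range. Means of 15.33 ± 1.11 and 8.05 ± 4.06 gave a difference of 7.28, with detection in 9 of 9 and 1 of 4 cells.

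Genes of the rod phototransduction machinery were mostly dim at this age. Of 25 on the list, 23 were measured and 6 were detected in at least 2 N1-CKO cells. Over the 23, the median difference was 0.77, and 18 had the higher mean (78.3%, beside 62.3% of all genes measured). Over the 6 it was 2.95, and 0.070 among the cells with a Gapdh ratio over 3, but 4 of the 6 were detected in Nrl-positive cells alone. Rbp3, the retinoid carrier of the space between photoreceptors and pigment epithelium, was detected in 6 of 9 Nrl-positive cells (4.64 to 16.00, median 13.23). In the others it was at the floor in cells 5 and 13, at 5.04 in cell 12 and at 11.44 in cell 8, the 1 of 4 detected. The sets overlapped, with a difference of 4.82. Pdc, which encodes phosducin, a binder of transducin subunits, was bright in Nrl-positive cells 1, 2, 3 and 10 (13.65 to 16.38) and in none of the others, for a difference of 4.88. Abca4, the retinoid flippase of outer segment discs, was detected in 4 of 9 and 0 of 4 cells (difference 3.88), and Pde6g, the inhibitory subunit of the rod phosphodiesterase, in 3 of 9 and 0 of 4 (2.02, and 1.20 without cell 10). Gnb1, the beta subunit of rod transducin and of G proteins in other cells, was detected in all 13 cells and had a mean lower by 1.90 in Nrl-positive cells, where cells 6, 9 and 10 were at 7.99, 9.80 and 10.68.

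Outer segment and ciliary genes showed a similar picture, brighter in some Nrl-positive cells and dim in nearly all others. Cdhr1, a cadherin of the forming discs, ran from 4.70 to 15.55 in Nrl-positive cells (median 13.30), against 7.35, 7.42, 4.64 and 4.64 in cells 5, 8, 12 and 13. It was detected in 5 of 9 and 0 of 4 cells, and the Nrl-positive mean was at least 2.54-fold higher than the detection thresholds of the 4 other arrays. Rom1, a disc rim protein, was detected in 5 of 9 and 0 of 4 cells (difference 4.78), and Tulp1, which serves transport into the outer segment, in 4 of 9 and 0 of 4 (4.54). Prom1, a membrane protein of disc evaginations, was detected in 6 of 9 cells and in cell 13, at 12.72. Its difference of 3.35 was 2.50 without cell 5 and 5.20 without cell 13. Rpgrip1, a protein of the connecting cilium, differed by 2.45 (4.23 without cell 12, 1.48 without cell 10) and was detected in 5 of 9 cells and in cell 12. Of the 16 members measured, 12 had the higher mean in Nrl-positive cells (75%, beside 62.3% of all genes measured), with a median difference of 1.23. The mean was higher by at least 3 for 4 of them (25%, beside 2.87%). The 8 detected in at least 2 cells had a median of 2.90, and 4 of these were detected in Nrl-positive cells alone.

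The Nrl-positive cells themselves were far from uniform in these genes. Cell 10, with the highest Nrl signal, also had the highest signal of all 13 cells for Pdc (16.38), Rbp3 (16.00), Rom1 (16.23), Tulp1 (16.97) and Rpgrip1 (17.50). Other genes of these lists did not peak there: in cell 10 Abca4 was at the floor, Cdhr1 at 8.35, Prom1 at 10.60 and Gnb1 at 10.68. Genes outside these lists, H1f2 (16.56) and Cacna1h (15.73), were also highest in cell 10. Its array had the fewest probe sets with a signal of at least 1252, 2800 against 3252 to 5670 on the other N1-CKO arrays. The part of this array value in the high signals of cell 10 was not tested. Cell 9, with the lowest Nrl signal among the positive cells, had 0 of 16 photoreceptor structure genes detected, but 7 of the 12 photoreceptor transcription factors measured and a Crx signal of 15.39, the highest of all. Cell 11 had 1 of 16 structure genes and 1 of 23 phototransduction genes. Counts of detected structure genes in Nrl-positive cells ran from 0 to 8, and in the others from 1 to 2.

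Transcripts of cones were detected in some Nrl-positive cells too. Over the 13 cone genes measured, the median difference was 0.37, near the 0.28 of all genes measured. Of these, 1 was higher by at least 3 (7.69%, beside 2.87% of all genes measured). The 4 detected in at least 2 cells had a median of 2.87, but Rxrg and Gngt2 among them entered through Nrl-positive cells alone. Gnb3, the transducin beta subunit of cones and of ON bipolar cells, was detected in 7 of 9 Nrl-positive cells and in cells 5 (12.58) and 8 (12.68), while cells 12 and 13 were at 5.94 and 4.64. Its difference of 3.19 was 1.75 without cell 13. Rxrg, a nuclear receptor of cones, and Gngt2, the gamma subunit of cone transducin, were each detected in 3 of 9 and 0 of 4 cells, with differences of 2.86 and 2.88. Ccdc136, the remaining cone gene used, was detected in 7 of 9 and 3 of 4 cells. Its difference was 1.89, and 1.09 without cell 13. Genes of the ribbon synapse, the release site of photoreceptor terminals, had a median of 1.10 over 10 members measured and 1.99 over the 6 detected in at least 2 cells. Syp, the synaptic vesicle protein synaptophysin, and Sv2b, another vesicle protein, were detected in 6 and 4 of 9 Nrl-positive cells and in none of the others. Their differences were 5.66 and 5.15. Other members were not confined to Nrl-positive cells. Cplx3 was detected in 5 of 9 cells and in cell 8, at 13.49 (2.49), and Pclo in 3 of 9 and 1 of 4 (1.49). Bsn was detected in 2 of 9 and 2 of 4 cells, with a difference of -1.62. Of the 10 members measured, 7 had the higher mean (70%, beside 62.3% of all genes measured).

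Of the bipolar cell list, 2 of 12 measured members were used. Neurod4, a bipolar and photoreceptor precursor factor, was bright in cells 5 (15.05) and 8 (16.66) and at the floor in cells 12 and 13, against a median of 14.84 in Nrl-positive cells. Among the latter, cell 11 was at the floor. Its difference of 3.00 was 1.13 without cell 12 and 5.14 without cell 8. Lhx4, a homeodomain factor of young bipolar cells and cones, was detected in 4 of 9 cells and in cell 8 (difference 3.75). None of the other 10 members was detected in more than 1 cell.

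**Figure D3:**
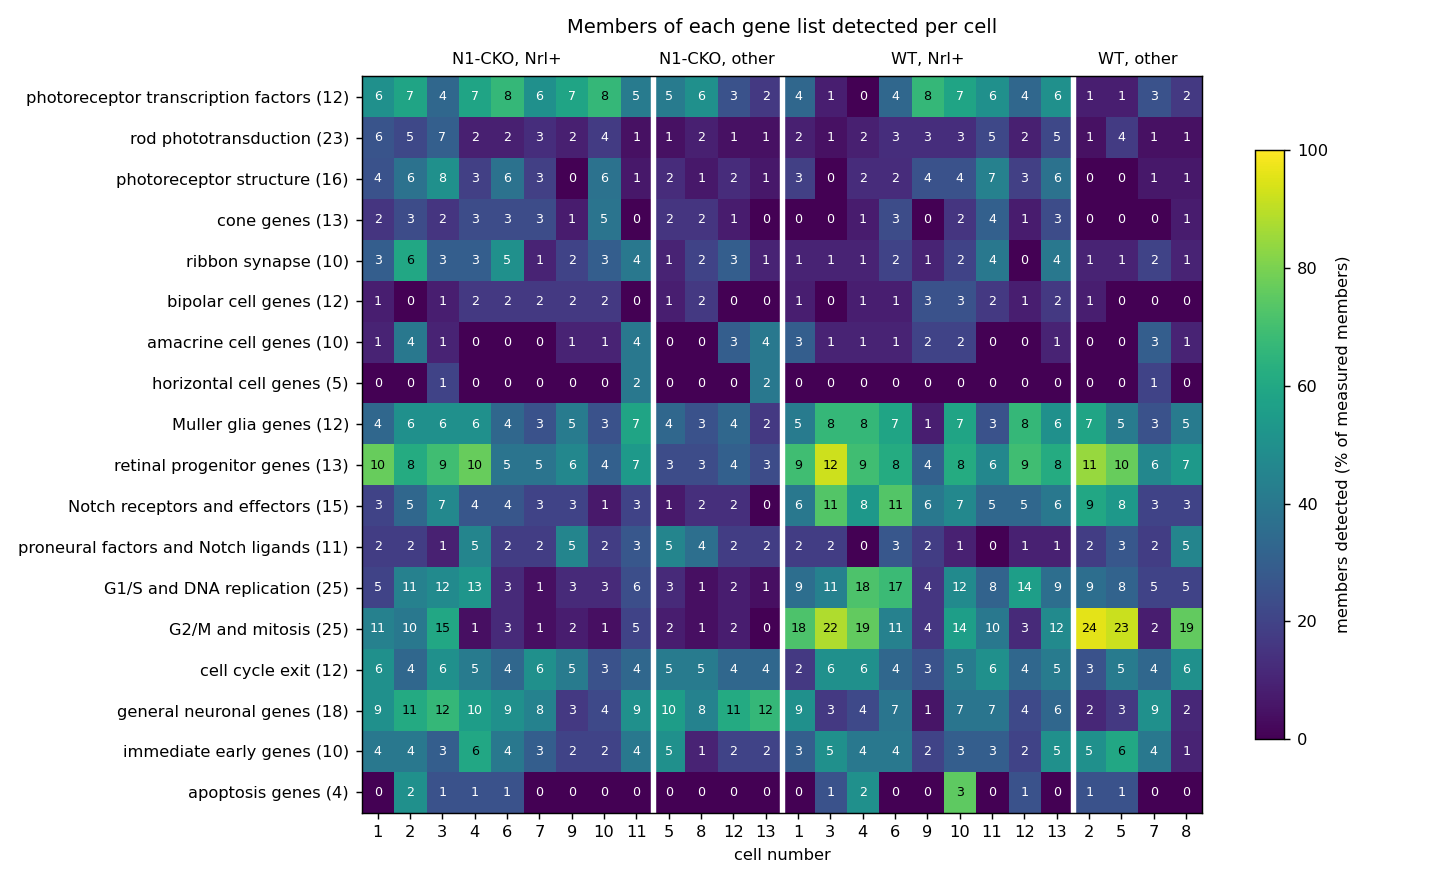
Number of members of each gene list detected in every cell (printed in the squares) and the same as a percentage of measured members (colour), with measured members in brackets and cells grouped by genotype and Nrl call. Among N1-CKO cells, G2/M genes are many in cells 1, 2 and 3 (11, 10 and 15 of 25) and at most 2 in the 4 cells without bright Nrl, and amacrine genes number 3 and 4 in cells 12 and 13.

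Genes of retinal progenitors were brighter in the Nrl-positive N1-CKO cells than in the others. Ccnd1, cyclin D1, the main cyclin of retinal progenitors, ran from 11.40 to 15.92 with a median of 13.89. It was 6.16 in cell 5, 4.64 in cell 8, 13.33 in cell 12 and 5.77 in cell 13. Cell 12 alone lay within the Nrl-positive range. Means of 14.03 ± 1.33 and 7.48 ± 3.95 gave a difference of 6.56, with detection in 9 of 9 and 1 of 4 cells, and the 2 dimmer Ccnd1 probe sets gave 2.36 and 6.26. Of the 13 progenitor genes measured, 11 had the higher mean (84.6%, beside 62.3% of all genes measured) and 6 were higher by at least 3 (46.2%, beside 2.87%). Their median difference was 2.72. The 12 detected in at least 2 cells had a median of 2.92, and 1.46 with the Nrl call at the 95th percentile.

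Individual progenitor factors were each detected in a part of the Nrl-positive cells. Lhx2, a homeodomain factor of progenitors and Müller glia, was detected in 5 of 9 and 0 of 4 cells (difference 5.10, at least 1.73-fold above the other arrays' thresholds). Rax, which specifies the retina and is also used in photoreceptors, was detected in 8 of 9 cells and in cell 5, at 14.62 (difference 4.04, and 6.52 without cell 5). Sox2, a factor that keeps progenitors undifferentiated, was detected in 6 of 9 cells and again in cell 5, at 11.97 (3.94). Nr2e1, a nuclear receptor of progenitors, was detected in 3 of 9 and 0 of 4 cells (3.58). The number of progenitor genes detected per cell was 4 to 10 of 13 in Nrl-positive cells and 3 to 4 in the others.

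The Müller glia list shares genes with progenitors. Of its 12 measured members, 11 had higher means in Nrl-positive cells (91.7%, beside 62.3% of all genes measured). The median difference over the 12 was 1.95. Rlbp1, the retinaldehyde binding protein of Müller glia, was detected in 5 of 9 and 0 of 4 cells. It ran from 5.09 to 13.39 (median 11.48) in Nrl-positive cells and from 4.64 to 5.43 in the others, a difference of 5.62. Dkk3, a secreted protein expressed by progenitors and glia, differed by 3.59 (2.70 without cell 13), and Cd9, a tetraspanin, by 3.65. Sox9, a glial and progenitor factor, was detected in 2 of 9 and 0 of 4 cells (2.77). Vim, the intermediate filament of progenitors and glia, was bright in cells 5 (14.82) and 8 (12.72), near the floor in cells 12 and 13, and detected in 7 of 9 Nrl-positive cells (2.42, but 0.90 without cell 13).

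Notch1 itself was not lower in the Nrl-positive cells. It was detected in 7 of 9 of them, at 12.26 to 14.63, with cells 6 and 11 at the floor. Among the others it was bright in cell 8 alone (15.26), with 7.07, 4.82 and 5.68 in cells 5, 12 and 13. Its difference of 3.09 was 1.96 without cell 12 and 5.44 without cell 8, and it was -3.31 where cell 8 was the only other cell with a Gapdh ratio of at most 3. Whether this probe set falls inside the floxed segment is not known here, so its signal does not check recombination.

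Targets and partners of the pathway were each detected in at most 5 Nrl-positive cells and 1 other cell by the probe sets used. Hes5, a repressor that Notch signalling induces, was detected in 5 of 9 Nrl-positive cells and in cell 12, at 10.93, with a difference of 3.32 (2.79 without cell 5). Id1, which sequesters helix-loop-helix proteins, was detected in 5 of 9 and 0 of 4 cells (3.31, and 2.84 without cell 3). Rbpj, the DNA binding partner of Notch, was detected in 2 of 9 cells and in cell 5 (2.71), while another Rbpj probe set, detected in 5 of 9 and 2 of 4, gave -0.61. Dtx4, an E3 ligase linked to the pathway, was detected in 4 of 9 and 0 of 4 (2.84). Of 15 members measured, 13 had the higher mean (86.7%, beside 62.3% of all genes measured). The median was 1.43, or 2.71 over the 9 detected in at least 2 cells. Per cell, 1 to 7 of 15 members were detected in Nrl-positive cells and 0 to 2 in the others. Proneural factors and Notch ligands had a median of 0.022 over 11 members measured. Hes6, which antagonises Hes1, was higher in mean by 2.47 (0.28 without cell 13, 4.09 without cell 5). Neurog2, a proneural factor of progenitors and early neurons, was lower by 2.39 (-1.39 as a difference without cell 12), with cell 12 at 13.07 and cell 13 at 10.72. It was also detected in 2 of 9 Nrl-positive cells, at 12.36 in cell 2 and 12.27 in cell 4. Mfng, a fringe enzyme that modifies Notch receptors, was bright in cells 5 and 8 (11.39 and 15.17). It was also bright in Nrl-positive cells 1, 4 and 9 (13.15, 12.48 and 12.47), with detection in 3 of 9 and 2 of 4 cells and a difference of -1.63.

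Large numbers of G2/M genes were detected in a minority of the Nrl-positive cells. Cells 1, 2 and 3 had 11, 10 and 15 of 25 G2/M and mitosis genes detected, and the other Nrl-positive cells had 1 to 5. The 4 other cells had 2, 1, 2 and 0 (cells 5, 8, 12 and 13). Counting cells with at least 8 such genes, the share was 3 of 9 (33.3%, interval 7.49 to 70.1) among Nrl-positive cells and 0 of 4 among the others (interval 0 to 60.2).

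Mki67, the proliferation antigen Ki-67, was bright in Nrl-positive cells 1, 2, 3 and 11 (14.73, 14.11, 14.90 and 14.53). The 4 other cells lay between 4.64 and 6.13, as did 4 of the remaining Nrl-positive cells, and cell 10 was at 9.23. The difference was 4.31, from 4 of 9 and 0 of 4 cells with detection, but -0.74 among the cells with a Gapdh ratio over 3. Top2a, the topoisomerase of replicating and dividing cells, was detected in 6 of 9 Nrl-positive cells, with 14.01, 12.83 and 14.32 in cells 1, 2 and 3. The others ranged from 4.64 to 4.98, a difference of 5.01, but the 2 other Top2a probe sets gave -0.20 and 0.87 and were detected in no N1-CKO cell. Ube2c, the ubiquitin-conjugating enzyme of mitotic exit, was detected in 5 of 9 and 0 of 4 cells (4.41). Cdk1, the mitotic kinase, and Kif23, a kinesin of cytokinesis, were each detected in 2 of 9 and 0 of 4 cells (3.08 and 3.45). Of 25 members measured, 22 had the higher mean (88%, beside 62.3% of all genes measured). The mean was higher by at least 3 for 5 of them (20%, beside 2.87%), and the median over the 25 was 1.50. The median of 1.99 over the 17 detected in at least 2 cells includes 12 detected in Nrl-positive cells alone.

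The G1/S and replication genes included cell 4, which had 13 of 25 detected but 1 G2/M gene. Cells 2 and 3 had 11 and 12, the other Nrl-positive cells 1 to 6, and the 4 other cells 1 to 3. Of 25 members measured, 24 had the higher mean in Nrl-positive cells (96%, beside 62.3% of all genes measured) and 5 were higher by at least 3 (20%, beside 2.87%), with a median of 1.68. The median of 2.27 over the 16 detected in at least 2 cells includes 11 detected in Nrl-positive cells alone. Pcna, the sliding clamp of DNA polymerase, was detected in 6 of 9 Nrl-positive cells and in cell 5 at 12.94 (difference 4.54). Slbp, the histone mRNA binding protein, was detected in 5 of 9 and 0 of 4 cells (4.95), and Rfc4, a clamp loader subunit, in 4 of 9 and 0 of 4 (3.82). Cell 9, with the lowest positive Nrl signal, had Cdt1, a replication licensing factor, at 14.31, Slbp at 13.42 and Pcna at 13.21, with 3 members detected in all.

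Among genes of cell cycle exit, the median difference was 0.70 over 12 members measured. Over the 8 detected in at least 2 cells it was 0.78, 0.16 without cell 13, and -0.80 where cell 8 was the only other cell with a Gapdh ratio of at most 3. Btg2, an antiproliferative gene of cells in their last division, was detected in 9 of 9 Nrl-positive cells (10.18 to 16.58) and in cells 5 (14.08) and 8 (15.39), and was at 4.64 and 5.48 in cells 12 and 13. Its difference of 3.83 was 2.08 without cell 12. Mxd4, an antagonist of Myc, and Rb1, the retinoblastoma protein, had lower means in Nrl-positive cells, by 2.60 and 2.12. The immediate early gene Fos was detected in 7 of 9 Nrl-positive cells and in cell 5, with a difference of 5.23, whereas Egr1 was detected in 8 of 9 and 4 of 4 (-1.06, with cell 10 at the floor).

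**Figure D4:**
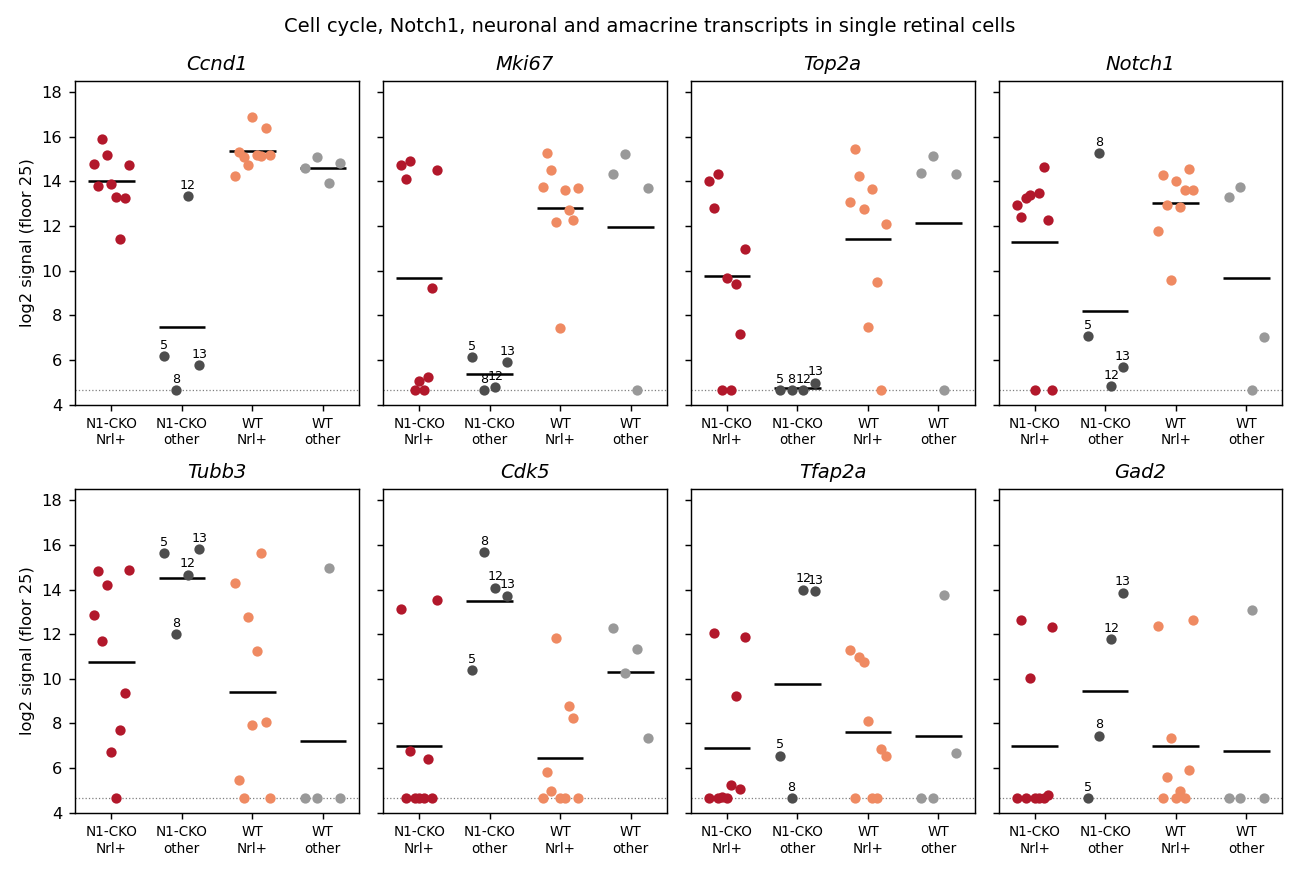
Log2 signal of cell cycle, Notch1, neuronal and amacrine genes in each cell (points), with N1-CKO cells without bright Nrl numbered, means as bars and the floor of 4.64 dotted. Ccnd1 is bright in all Nrl-positive N1-CKO cells (11.40 and above) and in cell 12 of the others, Tubb3 is bright in all 4 others (12.00 and above), and Tfap2a and Gad2 are bright in cells 12 and 13.

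General neuronal genes ran the other way. Tubb3, the neuronal beta-tubulin, was detected in 4 of 4 of the other cells, at 15.63, 12.00, 14.67 and 15.81 in cells 5, 8, 12 and 13. In Nrl-positive cells it ran from 4.64 to 14.86 (median 11.69) and was detected in 5 of 9. The sets overlapped, and the means of 10.77 ± 3.80 and 14.53 ± 1.76 differ by -3.75 (-2.99 without cell 7). Srrm4, a neuronal splicing factor, and Stmn3, a microtubule regulator of neurons, were each detected in 4 of 4 other cells and in 5 and 3 of 9 Nrl-positive cells, with differences of -2.93 and -2.68. Elavl3, a neuronal RNA binding protein, was at the floor in cell 5 and bright in cells 8, 12 and 13 (14.02, 14.15 and 13.04), a difference of -2.57 (-4.84 without cell 5, -1.67 without cell 12). Snap25, a presynaptic SNARE protein, was higher in mean in Nrl-positive cells by 2.83 (1.18 without cell 8). Of 18 members measured, 13 had the lower mean in Nrl-positive cells (72.2%, beside 37.6% of all genes measured), with a median of -1.26. Over the 15 detected in at least 2 cells the median was -2.11. It was -0.61 without the cells whose Gapdh ratio exceeded 3, and -0.62 within those cells.

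Amacrine genes were bright in 2 of the 4 other cells. Tfap2a, a transcription factor of amacrine precursors, was at 14.00 in cell 12 and 13.92 in cell 13, against 6.56 and 4.64 in cells 5 and 8. Its paralogue Tfap2b was at 13.96 and 14.13 in cells 12 and 13, and at the floor in cells 5 and 8. Gad2, which makes the transmitter GABA, was at 11.80 and 13.87 in cells 12 and 13, and at 4.64 and 7.46 in cells 5 and 8. These same transcripts were also bright in Nrl-positive cells 2 and 11: Tfap2a was at 12.05 and 11.88, Tfap2b at 12.02 and 14.40, and Gad2 at 12.64 and 12.35. The numbers of amacrine genes detected, of 10, were 4 in each of cells 2 and 11, 3 in cell 12, 4 in cell 13, 0 in cells 5 and 8, and 0 or 1 in the other 7 Nrl-positive cells.

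The differences of the sets for amacrine genes are accordingly small beside their spread. Tfap2a gave -2.88 (6.90 ± 3.22 against 9.78 ± 4.89) and -1.48 without cell 12. Gad2 gave -2.44 and Tfap2b -1.08, which without cell 13 were -0.96 and 0.52, while Slc6a9, the glycine transporter of another class of amacrine cells, was higher in mean by 2.80. The list median of -1.76 over 4 members was -3.30 without cell 5 and -0.22 without cell 13, and it was 2.71 where cell 8 was the only other cell with a Gapdh ratio of at most 3. Onecut2, a factor of horizontal cell precursors, was at 10.49 and 12.33 in cells 12 and 13, and at 10.20 in cell 11. Its difference of -3.10 was -1.90 without cell 13. Prox1, expressed in horizontal and some amacrine cells, was bright in cells 11 (12.13) and 13 (12.60). Cell 11 thus combined bright Nrl, Crx and Otx2 with bright amacrine and horizontal transcripts, no Prdm1 or Neurod4 above the floor, and Mki67 at 14.53. Whether such an array holds RNA of more than a single cell was not tested.

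Markers of cell types outside the neural retina were sparse. Of 8 microglia and 4 astrocyte markers, 0 were detected in any N1-CKO cell. Of the 7 endothelial, 8 pigment epithelium, 6 lens and 3 red blood cell markers measured, each cell had at most 1 of each list detected. Kdr, a growth factor receptor of endothelial cells, was the only endothelial marker used, and was bright in Nrl-positive cells 3 and 4 and in cell 13.

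The 4 cells without bright Nrl therefore did not share a single profile by the lists. Cells 5 and 8 carried Otx2, Prdm1, Neurod4, Btg2, Gnb3 and Vim at detected levels (Neurod4 in cell 8, at 16.66, lay above the Nrl-positive range, which ended at 16.25), and no amacrine gene above detection. Cells 12 and 13 lacked all of these above detection, and carried Tfap2a, Tfap2b and Gad2. Detection in 4 of 4 was shared by 568 (14.8%) of the genes used. Among them were the list members Neurod1, Rorb, Tubb3, Srrm4, Stmn3, Egr1, Gnb1 and Mxd4. Of these, Neurod1 and Gnb1 were also detected in 9 of 9 Nrl-positive cells. Cell 8 is also the only one with a Gapdh ratio under 3 and the only one on a high 18S array, so its differences from the other 3 and those array values cannot be told apart.

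The genes with the largest lower means in Nrl-positive cells belonged to no list. Slc25a39, a mitochondrial carrier, was at 14.24, 15.10, 14.43 and 13.52 in cells 5, 8, 12 and 13. In Nrl-positive cells it ran from 4.64 to 13.73 (median 5.24), with detection in 2 of 9. The sets overlapped in cell 2 alone, and the difference was -6.99. Cdk5, the cyclin-dependent kinase of postmitotic neurons, was detected in 4 of 4 other cells (10.40 to 15.68) and in Nrl-positive cells 1 (13.12) and 11 (13.55), a difference of -6.47 (7.00 ± 3.68 against 13.48 ± 2.22). The 2 other Cdk5 probe sets gave -1.43 and 1.94, with detection in at most 1 cell. Coa5, an assembly factor of cytochrome oxidase, differed by -6.43, but a second probe set gave 0.93. Abcg1, a sterol exporter, Nudcd2 and Septin3, a septin of neurons, differed by -5.88, -5.52 and -5.47. The remaining members of the 12 lowest, apart from Srpk1, were Rhno1, D8Ertd738e, Trappc3, Nt5m and Cibar1, at -5.34 to -5.01.

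Genes whose sets did not overlap at all were few, 4 higher and 8 lower in Nrl-positive cells, or 0.104% and 0.208% of those used. Besides Crx, the higher genes were Ndufa4l2, Atp6v1d and BB283400. Ndufa4l2, a mitochondrial protein linked to low oxygen, lay at 8.48 to 15.57 in Nrl-positive cells (median 13.30) and at 4.76, 6.24, 5.80 and 6.47 in cells 5, 8, 12 and 13. It was detected in 8 of 9 and 0 of 4 cells, and its Nrl-positive mean was at least 7.89-fold higher than the thresholds of the other arrays. Atp6v1d, a subunit of the vacuolar proton pump, lay at 8.08 to 13.20 against 4.64 to 6.21 (difference 6.18, at least 2.87-fold), and its 2 other probe sets gave 5.29 and 4.65.

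The lower genes without overlap included Srpk1, a kinase of splicing factors, at 4.64 to 11.54 in Nrl-positive cells (median 4.94) and at 12.63, 14.14, 11.86 and 12.43 in the others. Its difference was -6.15. Limk1, a kinase that acts on cofilin, Tmem181a and Safb, a nuclear matrix protein, differed by -4.58, -4.36 and -3.82. Rbm39, a splicing factor, and Slc38a2, an amino acid transporter, were detected in most cells of both sets and differed by -1.21 and -1.90. A second Rbm39 probe set, detected in 5 of 9 and 1 of 4 cells, gave 3.15, and a second Slc38a2 probe set, detected in 2 of 9 and 0 of 4, gave 1.20. Counts of this kind move with every cell, and leaving out a single cell gave 5 to 30 higher genes (30 without cell 5) and 9 to 32 lower genes (32 without cell 8).

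Further genes among the 12 highest were Cacna1h, a T-type calcium channel, and Pih1d1, a chaperone cofactor, each detected in 7 of 9 and 0 of 4 cells, with differences of 6.70 and 6.66. Mgat1, an enzyme of N-glycan synthesis, was at the floor in all 4 other cells and detected in 6 of 9 Nrl-positive cells (difference 5.74). H1f2, a linker histone, Nudt9 and Mrpl42, a mitochondrial ribosomal protein, differed by 5.68, 5.69 and 5.68.

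The same rule for Nrl applied to the WT cells, which share no sample with the N1-CKO cells, also gave 9 positive and 4 other cells (WT cells 2, 5, 7 and 8). Of the 375 genes higher by at least 3 in Nrl-positive N1-CKO cells, 215 (57.3%) had the higher mean in Nrl-positive WT cells, beside 50.8% of all genes used. For the 212 lower genes, 107 (50.5%) had the lower mean in WT, beside 49.2%. By the same size rule, 45 of the 375 (12%) were also higher by at least 3 in WT, where 6.38% of all genes were, and 15 of the 212 (7.08%) were also lower, where 4.35% were. Most genes past the size rule in N1-CKO cells were thus not past it in WT cells.

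Of 17 members of the photoreceptor, ribbon synapse and bipolar lists that were higher by at least 3 in N1-CKO cells, 9 were so in WT cells. With Fabp7 and a few genes picked out after their values were seen, they were as follows. Fabp7 differed by 6.75 in WT cells (8 of 9 and 1 of 4 detected), Otx2 by 7.41 (7 of 9 and 0 of 4) and Crx by 5.23 (6 of 9 and 0 of 4). Prom1 differed by 6.19, Neurod4 by 5.37, Rom1 by 4.45, Gnb3 by 4.08, Prdm1 by 3.95, Cdhr1 by 3.31 and Tulp1 by 3.25. Atp6v1d was higher in both (3.48 in WT), as were Med8, a Mediator subunit (5.51 and 5.78 in N1-CKO and WT), Ube3a, a ubiquitin ligase (5.49 and 4.86) and Ubxn1, a ubiquitin-binding cofactor (5.02 and 6.36). Cdk5 (-3.84 in WT), Septin3 (-3.81) and Sox11, a factor of young neurons (-4.15 and -3.15 in N1-CKO and WT), were lower in both.

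The other 8 members of those lists were not past the size rule in WT cells: Abca4 differed there by 2.48, Sv2b by 2.05, Rbp3 by 1.76, Mef2d by 1.51, Casz1 by 1.07, Pdc by 0.79, Lhx4 by 0.78 and Syp by -0.21. Genes of other groups were mixed. Past the size rule in WT cells too were Pcna (4.84 there), Slbp (3.98), Btg2 (3.45), Notch1 (3.35), Rfc4 (3.29) and Ube2c (3.18). Others were not past it in the same direction. Ccnd1 was detected in 9 of 9 and 4 of 4 WT cells and differed by 0.73 there. Ndufa4l2 differed by -1.38 in WT, with detection in 7 of 9 and 4 of 4 cells. Of the G2/M genes other than Ube2c, Mki67 differed by 0.86 in WT, Cdk1 by -0.32 and Kif23 by -3.69, the last past the size rule in the opposite direction. Fos differed by -0.26 in WT, Slc25a39 by 0.72, Coa5 by 0.60 and Srpk1 by -0.05. Tubb3, lower in mean in Nrl-positive N1-CKO cells, was higher in Nrl-positive WT cells by 2.18. Neurod1, near equal in N1-CKO cells, was higher by 3.78 in WT, detected in 7 of 9 and 2 of 4 cells. No difference between the genotypes was tested.

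By lists, over members detected in at least 2 N1-CKO cells, medians for photoreceptor genes had the same sign in both genotypes, and those for G2/M genes had opposite signs. Photoreceptor transcription factors had medians of 3.48 in N1-CKO and 3.06 in WT cells, photoreceptor structure genes 2.90 and 3.28, and G1/S genes 2.27 and 2.71. G2/M genes had 1.99 and -0.78, progenitor genes 2.92 and 0.24, general neuronal genes -2.11 and 0.81, and amacrine genes -1.76 and 0.26. Among the few cells without bright Nrl, counts of detected G2/M genes were not alike in both genotypes, a difference that was not tested. WT cells 2, 5 and 8 had 24, 23 and 19 of 25 G2/M genes detected and WT cell 7 had 2. None of the 4 N1-CKO cells without bright Nrl had more than 2. At least 8 G2/M genes were detected in 3 of 4 such WT cells (75%, interval 19.4 to 99.4) and 0 of 4 N1-CKO cells (interval 0 to 60.2). WT cell 7 had 3 amacrine genes detected, as N1-CKO cell 12 did.

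**Figure D5:**
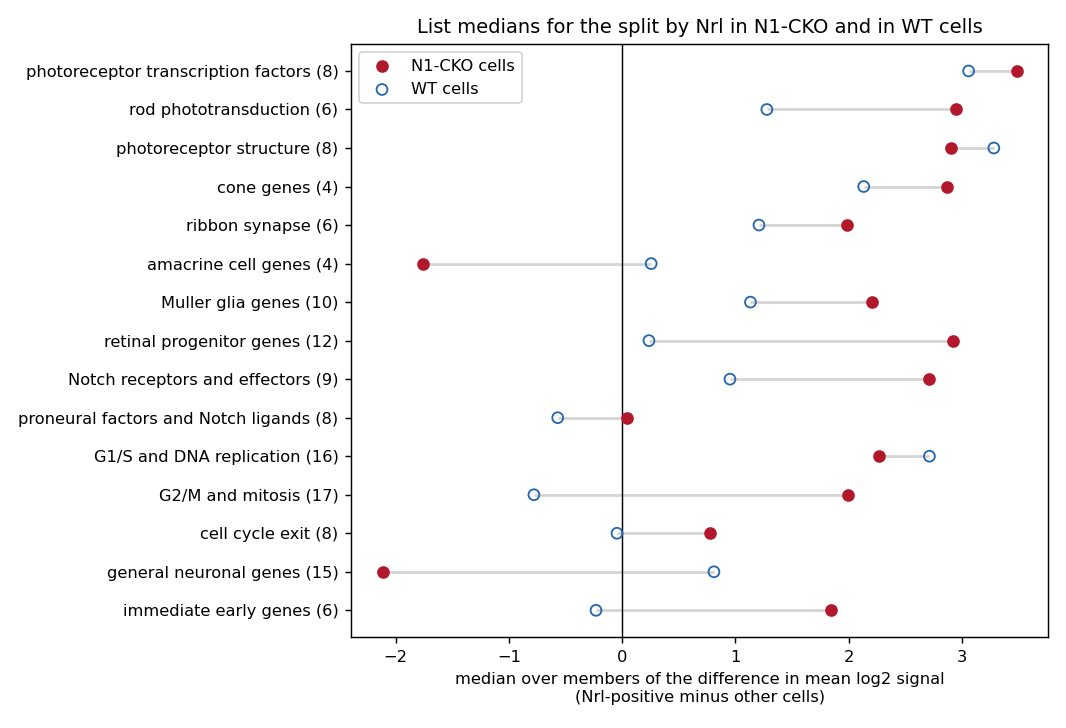
Median over the members of each list detected in at least 2 N1-CKO cells (number in brackets) of the difference in mean log2 signal, Nrl-positive minus other cells, in N1-CKO (filled) and WT cells (open). Photoreceptor lists lie right of 0 in both genotypes, while G2/M genes (1.99 and -0.78) and general neuronal genes (-2.11 and 0.81) lie on opposite sides.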

How the data were processed

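Single cells were profiled on 26 Affymetrix mouse arrays, 1 cell each. The deposited values are linear intensity signals that the authors computed with MAS5 (version not given in the sources used here), according to the submitters' processing notes. MAS5 scales arrays to a common mean (500.0 on each after trimming 2% from both ends), so they hold no measure of a cell's total RNA. Of 45101 probe sets, 64 were controls. GEO's platform annotation gave 34945 of the others 1 gene symbol, 932 several (left out) and 9160 none listed. RefSeq symbols (GRCm38.p6) changed 0 names.

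Each gene was read from its brightest probe set, by mean log2 signal over all 26 arrays after a floor of 25. Genes used were detected (90th percentile of the own array, 4504 probe sets per cell) in at least 4 of 13 N1-CKO cells, list members in at least 2. Nrl was left out of the genes used and of their counts. The 25 lists hold 312 genes, 293 of them measured. An "at least" fold sets the Nrl-positive mean against the mean log2 detection threshold of the other arrays. Named were the 12 highest and 12 lowest differences with detection differing the same way, every photoreceptor transcription factor used, up to 5 members of each other list with the largest differences, up to 10 genes without overlap, Nrl, Mki67 and Notch1. This gave 112 genes, 23 of which have another probe set of opposite sign (35 of 124 such probe sets, each detected in at most 7 cells). Genes outside the rule are given as such, or describe single cells. List counts over all measured members, without the filter, stand beside the same over 18192 genes. The split, the lists and the rule were chosen with earlier results of these data known.

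No p-values were made, because cells of unnamed animals are not replicates, and the few arrays limit how precise any value is. Intervals are exact 95% Clopper-Pearson intervals for counting error only. Python 3.11.15, numpy 2.4.6, pandas 2.3.3, scipy 1.17.1 and matplotlib 3.10.9 were used, and the code was tested on simulated data. Alternatives changed the percentile, floor, average, probe sets, normalization, filter, size rule and the cells kept.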

Additional observations from a re-analysis of the deposited data

Results flagged for a closer look

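Of 52 sets of values looked at, 3 held a cell whose gap to the nearest of its set was large against the range of that set. Chance would give such a gap in about 1 in 20 sets of normally distributed values. These signals are floored and often either bright or dim, so that rate does not apply to them. The mean log2 signal of Müller glia genes was 6.44 in N1-CKO cell 13 and 7.66 to 7.82 in the 3 other cells without bright Nrl. The log2 signal of Prdm1 was 4.64, the floor, in Nrl-positive N1-CKO cell 11 and 11.24 to 16.34 in the 8 remaining Nrl-positive cells. The log2 signal of Nrl was 6.75 in N1-CKO cell 8 and 4.64 in the 3 other cells without bright Nrl. The Nrl value belongs to the measure that chose the cells. Because the 3 other signals were raised to the floor, any value above it would have been flagged.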

How the results depend on the processing

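For the 67 named genes past the size rule, 844 of 864 values over the alternatives had the sign given in the report, as did 222 of 233 list medians. With a single cell left out, 871 of 871 values of those genes and 230 of 234 list medians did. Of the 44 named genes not past it, 8 changed sign without some cell (11 of 572 values): Dll1, Ebf3, Kdr, Mfng, Prox1, Rorb, Samd11 and Tfap2b. The call at the 85th percentile gave the same split, and dropping the filter on detection leaves the difference of each gene unchanged. Neither setting could thus change the sign of a named gene. The 67 genes were taken for differences of at least 3, so agreement in sign was favoured in advance. No second Nrl probe set exists to try. Counts of genes higher and lower by at least 3 (375 and 212) were 246 and 127 with the Nrl call at the 95th percentile, 197 and 103 with a floor of 100, 784 and 489 with medians in place of means, 211 and 77 when probe sets of a gene were averaged, 723 and 562 with a size rule of 2, and 333 lower without the filter on detection. They were 1003 and 808 on high 18S arrays, 563 and 367 on low 18S arrays, 1100 and 741 with a Gapdh ratio of at most 3, and 698 and 595 with a ratio over 3, an alternative chosen after seeing the data. Leaving out each cell in turn gave 357 to 498 and 200 to 326. Genes without overlap (4 and 8) numbered 1 and 1 at the 95th percentile, 8 higher with averaged probe sets, 10 and 13 without the filter, 720 and 796 on high 18S and 81 and 92 on low 18S arrays, and 361 and 607 and 367 and 335 at the lower and higher Gapdh ratios. Leaving out each cell gave 5 to 30 and 9 to 32. Fewer cells make large differences and separation more frequent by construction. Other causes were not tested.

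The median of photoreceptor transcription factors was 5.02 on low 18S arrays, 5.32 at a ratio over 3, 1.80 with averaged probe sets and 0.80 without the filter. With cell 8 as the only other cell, it was -0.87 (high 18S) and -0.60 (ratio of at most 3). In those settings, in that order, the bipolar median was -2.74 and -2.37, the amacrine one 2.59 and 2.71, the cell cycle exit one -0.41 and -0.80, Btg2 -1.15 and -1.62, Gnb3 -2.36 and -1.06, Lhx4 -0.80 and -0.76, Neurod4 -4.68 and -3.98, Notch1 -4.07 and -3.31, Otx2 -1.18 and -1.89, and Rbp3 -0.55 and -0.70. Onecut2 (0.28) and Prdm1 (-0.56) reversed on high 18S arrays alone. At a ratio of at most 3 the Notch median was 1.25 (1.43 without the filter), the immediate early median 4.32 and the neuronal median -0.61. The neuronal median was -0.62 at a ratio over 3, -0.31 at the 95th percentile and -0.69 with averaged probe sets. At a ratio over 3 the rod median was 0.070 and Mki67 reversed (-0.74). The cone median was 0.37 without the filter and the progenitor median 1.46 at the 95th percentile. Without probe sets marked as shared, Cibar1 (0.13), Coa5 (0.93) and Top2a (-0.20) reversed. Quantile normalization moved the median of all genes from 0.17 to -0.06. Without cell 8 the immediate early median of 1.84 was 0.62 and without cell 5 it was 3.48. No paired analysis was possible because no result comes from a test and the numbers that N1-CKO and WT cells share only name cells. Transcripts under the 90th percentile of an array are not shown to be absent.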
